A study of Mus musculus with 4 samples.

Results

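The Rspo2 Col5a2 excitatory neurons described here were 201 nuclei of the mouse basolateral amygdala (BLA), out of 27313 barcodes in 4 single-nucleus RNA libraries. They were chosen by their transcript counts, given as UMIs (unique molecular identifiers, 1 for each captured RNA molecule). Barcodes with at least 500 genes, under 5% mitochondrial UMIs and under 25000 UMIs were kept, which left 26106. A member had at least 1 UMI of Slc17a7 (the vesicular glutamate transporter VGLUT1) and at most 1 UMI of Gad1 and Gad2 together (the GABA-synthesising enzymes). It also had at least 2 UMIs of Rspo2, at most 3 of Rorb, and at least 2 more UMIs of Col5a2 than of Adamts2. The members came to 37 nuclei in WT replicate 1, 48 in DISC1-N replicate 1, 37 in WT replicate 2 and 79 in DISC1-N replicate 2.

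The study profiled BLA nuclei of WT and DISC1-N mice, to ask whether BLA cells of DISC1-N mice are functionally altered. Both genotypes were on the C57BL/6J strain, and there were 2 libraries of each. All mice, WT included, received tamoxifen and were killed 6 h later, and each group pooled the BLA of both hemispheres of 5 mice. The sample labels spell the mutant genotype DISC-N and the series text DISC1-N, and give no age, sex, promoter or Cre driver. The labels do not say whether the replicates of a genotype came from separate mice, so the spread between these libraries may be technical. The p-values below therefore cannot be taken to measure spread between mice. Those of single genes also rest on spread pooled over all genes, since each genotype had 2 libraries. Mouse Disc1 had 6, 12, 2 and 14 UMIs in the members of WT 1, DISC1-N 1, WT 2 and DISC1-N 2, and these counts do not check the genotype labels.

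Rspo2 encodes R-spondin 2, a secreted protein that raises the response of a cell to Wnt ligands: it binds LGR receptors and removes the ubiquitin ligases ZNRF3 and RNF43, which otherwise clear the Wnt receptor Frizzled from the membrane. In the amygdala, Rspo2 marks excitatory neurons of the anterior, magnocellular part of the BLA. Col5a2 encodes a chain of type V collagen, Adamts2 a protease that trims procollagens, Sema3e a secreted semaphorin that guides axons, and Blnk an adaptor protein best known from B-cell receptor signalling.

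The 4 libraries held 1613 to 2091 excitatory nuclei each, 7362 in all, defined by the Slc17a7 and Gad limits alone. The members were compared with 4708 of these with no Rspo2 UMI (1003 to 1460 per library), called Rspo2-free nuclei, and with 182 nuclei that met the same rule with Adamts2 in excess over Col5a2 (28 to 62 per library), called Rspo2 Adamts2 nuclei. The members were deep nuclei, with a median of 11745 UMIs (4776 to 24852), against library medians of 4635.5 to 5814 in the Rspo2-free nuclei. The summed UMIs of the members were 512553 in WT 1, 638148 in DISC1-N 1, 397025 in WT 2 and 951754 in DISC1-N 2. Levels are given as CPM, the UMIs of a gene per 1000000 UMIs of a set of nuclei in 1 library. No member barcode was shared between the members of different libraries, and 9 of the 201 (4.48%) were among the nuclei of highest doublet score.

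The rule picked nuclei from a graded field of counts. Of the 1632 excitatory nuclei with at least 2 Rspo2 UMIs, 796 had no UMI of either Col5a2 or Adamts2, 391 had Col5a2 and no Adamts2, 341 had Adamts2 and no Col5a2, and 104 had both. Members had a median of 4 Rspo2 UMIs (2 to 21) and 3 Col5a2 UMIs (2 to 8). Adamts2 was at 0 in 195 of the 201 and Rorb at 0 in 183. These values chose the members and are a description.

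**Figure D1:**
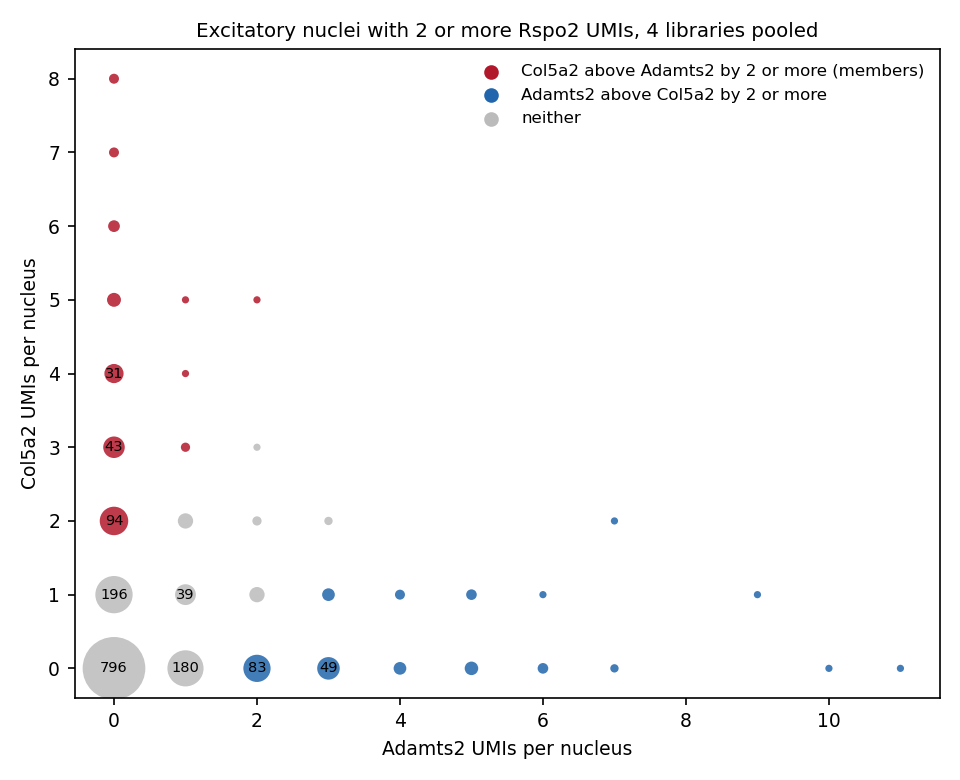
Col5a2 UMIs (vertical axis) against Adamts2 UMIs (horizontal axis) per nucleus in the 1632 excitatory nuclei with at least 2 Rspo2 UMIs, 4 libraries pooled; point area stands for the number of nuclei, printed in the larger points. The nuclei lie along the 2 axes, with 796 at the origin and 94 members at 2 Col5a2 UMIs and no Adamts2.

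The 97 members with exactly 2 more Col5a2 than Adamts2 UMIs had 148 CPM of Sema3e and 53.6 CPM of Blnk. The 213 nuclei just outside, with an excess of 1, had 191 and 45.7 CPM. At the Rspo2 limit, 46 members with exactly 2 Rspo2 UMIs had 99.3 CPM of Sema3e and 63.5 CPM of Blnk, and 65 nuclei with 1 Rspo2 UMI had 181 and 67.6 CPM. The 44 nuclei with the same Col5a2 excess and no Rspo2 UMI had 107 and 58.2 CPM. Sema3e was thus higher just outside both limits than just inside, and Blnk was about alike on either side.

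Sema3e and Blnk, the markers that the rule did not count, were both higher in the members than in the Rspo2-free nuclei of the same library, in 4 of 4 libraries. The 2 sets were separated by gene counts of the same nuclei, so all levels of the members against the Rspo2-free nuclei are descriptions and carry no test. In the order WT 1, DISC1-N 1, WT 2, DISC1-N 2, which is kept throughout, Sema3e stood at 127, 157, 176 and 187 CPM in the members and at 43.9, 50.1, 52.4 and 46.1 CPM in the Rspo2-free nuclei. The log2 ratio was 1.72 ± 0.21 (SD over 4 libraries; all ratios were taken on CPM + 1). Sema3e was just as high in the Rspo2 Adamts2 nuclei (118, 158, 218 and 230 CPM), so it marked both Rspo2 sets.

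Blnk set the members apart from both. It stood at 35.1, 61.1, 80.6 and 84.1 CPM in the members, at 12.4, 11.9, 10.0 and 11.2 CPM in the Rspo2-free nuclei, and at 17.3, 12, 1.57 and 12.1 CPM in the Rspo2 Adamts2 nuclei. Its log2 ratio to the Rspo2-free nuclei was 2.35 ± 0.67, and the lowest member library lay above the highest library of both other sets.

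At the level of single nuclei, 139 members (69.2%) had a Sema3e UMI and 104 (51.7%) a Blnk UMI. Both were found in 75 members and neither in 33. In 1022 oligodendrocyte nuclei (at least 2 UMIs of the myelin gene Mog and none of Slc17a7, Gad1 or Gad2), which should lack both genes, 3.62% had a Sema3e UMI and 2.15% a Blnk UMI, at a median depth of 1636.5 UMIs. After every nucleus was thinned to 5000 UMIs and shallower ones were left out, a Blnk UMI was seen in 27.0%, 27.1%, 30.6% and 43.0% of members and in 2.62% to 4.20% of Rspo2-free nuclei. The thinned shares for Sema3e were 44.3% to 56.8% of members and 14.4% to 17.4% of Rspo2-free nuclei.

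The sequence just before the annotated start of Sema3e is shown because this marker was shared by both Rspo2 sets. RefSeq (GRCm38.p6) places it on the plus strand at chr5:14025126-14025275, and capitals mark the GC box letters GGGCGG on either strand. Of 32851 windows of this length before RefSeq starts, 28.6% held GGGCGG on either strand. The windows before the start of Blnk and several other leading genes overlapped annotated exons and are not printed.
Sema3e: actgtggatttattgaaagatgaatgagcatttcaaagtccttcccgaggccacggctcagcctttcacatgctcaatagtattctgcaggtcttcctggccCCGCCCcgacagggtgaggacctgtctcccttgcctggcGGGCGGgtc

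Among the genes named for a high ratio, Oprk1 was highest, above both Blnk and Sema3e, and Npsr1 came next after Blnk. Oprk1, the kappa opioid receptor that binds dynorphin, stood at 64.4, 68.9, 63.0 and 62.0 CPM in the members and 11.0, 12.7, 12.5 and 9.42 CPM in the Rspo2-free nuclei, a log2 ratio of 2.41 ± 0.15. Npsr1, the neuropeptide S receptor, stood at 423, 448, 360 and 670 CPM against 108, 103, 91.6 and 124 CPM, a log2 ratio of 2.11 ± 0.22. For both genes, every member library lay above every Rspo2-free library, and Npsr1 was highest in DISC1-N 2. The Rspo2 Adamts2 nuclei overlapped the members for both, with 23.0, 43.9, 50.2 and 71.4 CPM of Oprk1 and 302, 353, 454 and 399 CPM of Npsr1. In the oligodendrocyte nuclei 1.08% had an Oprk1 UMI and 1.66% an Npsr1 UMI.

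Ntng2 encodes netrin-G2, a membrane-anchored protein that organises synapses with its ligand NGL-2. It stood at 91.7, 61.1, 128 and 97.7 CPM in the members against 23.3, 21.1, 20.3 and 25.1 CPM, a log2 ratio of 1.99 ± 0.46, and at 11.5 to 21.8 CPM in the Rspo2 Adamts2 nuclei. Bdnf, the activity-induced neurotrophin, stood at 72.2, 75.2, 128 and 79.9 CPM against 32.7, 26.7, 31.0 and 28.3 CPM (1.51 ± 0.37), and at 28.8, 22, 12.6 and 23.0 CPM in the Rspo2 Adamts2 nuclei. Like Blnk, these 2 genes were higher in every member library than in every library of both other sets.

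Cdh9, a classical cadherin of synaptic adhesion, was shared instead. It stood at 1399, 1246, 1219 and 1339 CPM in the members, 327.7 to 467.4 CPM in the Rspo2-free nuclei and 1327 to 1441 CPM in the Rspo2 Adamts2 nuclei. The other leading genes were Mei1 (log2 ratio 1.87 ± 0.25), Etl4 (1.71), Bmp3 (1.70), a bone morphogenetic protein, Dlc1 (1.61), a GTPase-activating protein, Cfap299 (1.58), Itgbl1 (1.57), Astn2 (1.53), an astrotactin of neuronal migration, and Galnt14 (1.48). All were higher in the members in each of the 4 libraries, as the rule for naming them required.

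Among the genes with the lowest ratios in the members, Adarb2, a marker of interneurons of caudal ganglionic eminence origin, stood at 27.3, 58.0, 30.2 and 43.1 CPM in the members against 335, 293, 349 and 406 CPM, a log2 ratio of -3.14 ± 0.57. Cdh13, T-cadherin, stood at 58.5, 64.2, 25.2 and 20.0 CPM against 272, 231, 347 and 323 CPM (-2.93). Nxph1, an alpha-neurexin ligand of interneurons, was lowest by ratio (-4.17 ± 2.21), with 0 to 23.5 CPM in the members. The rest were Glra3, a glycine receptor subunit (-3.52), Sgcz (-3.00), Sox6 (-2.98), Kctd8, a GABA-B receptor auxiliary subunit (-2.98), Grik1, a kainate receptor subunit (-2.79), Plpp3 (-2.79) and Vwc2 (-2.75).

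**Figure D2:**
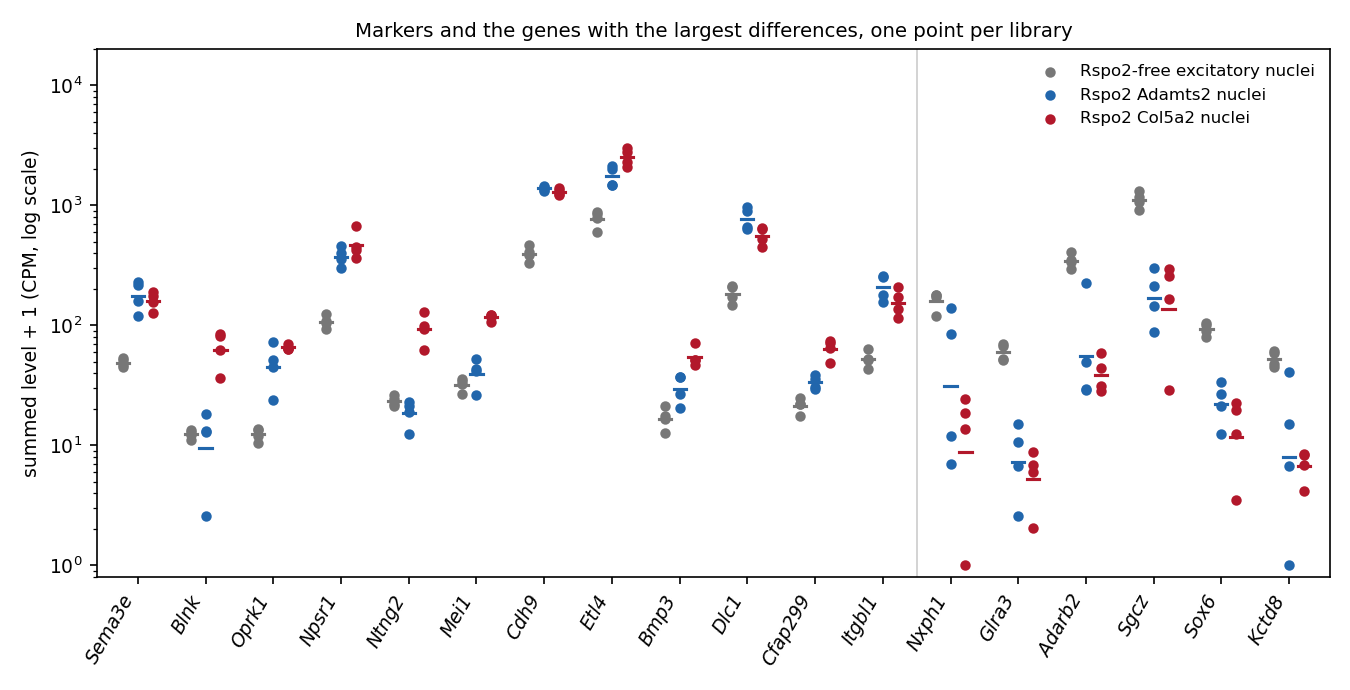
Summed level + 1 (CPM, log axis) of the 2 markers outside the rule, the leading higher genes (left of the grey line) and the leading lower genes (right), in Rspo2-free (grey), Rspo2 Adamts2 (blue) and Rspo2 Col5a2 (red) nuclei; each point is 1 library and each dash the mean of the log values. Blnk and Ntng2 separate the red from the blue points, while Sema3e, Npsr1 and Cdh9 do not.

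Of 6998 genes with a mean of at least 20 CPM over both sets, 13.1% were higher in the members in all 4 libraries and 25.7% lower, with a median log2 ratio of -0.09. These shares stand beside all list counts below, which describe the lists and test nothing. With both sets limited to nuclei of at least 5000 UMIs, 2194 genes lay on 1 side in all 4 libraries, against 2713 without that limit.

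The nuclei carried little RNA of other cell types, measured as the summed CPM of each marker list. The 14 inhibitory neuron markers summed to 228, 207, 149 and 137 CPM in the members and 713 to 946 CPM in the Rspo2-free nuclei, with Dlx1 at 0 in the members. The 10 astrocyte markers summed to 255 to 386 CPM (620 to 903 CPM in the Rspo2-free nuclei), with Gfap at 0. The 9 endothelial and mural markers summed to 2.52 to 7.84 CPM, with Cldn5, Rgs5 and Kcnj8 at 0, and the 7 precursor markers to 5.04 to 44.9 CPM, with Olig1 at 0. All inhibitory markers and astrocyte markers measured were lower in the members in 4 of 4 libraries except Npy, which was higher (log2 ratio 0.51). The part of such RNA in the lower genes named above was not tested.

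Few genes of the R-spondin and Wnt pathway reached the measured level, 11 of 49 listed outside the rule. Of these, 2 were higher and 5 lower in all 4 libraries, with a median of -0.20. Among ligands, Rspo1 and Rspo4 had no UMI in the members, and Rspo3 stood at 13.7, 15.7, 10.1 and 13.7 CPM. Among receptors, Lgr4 stood at 39.0, 36.0, 25.2 and 43.1 CPM in the members and 41.4 to 52.6 CPM in the Rspo2-free nuclei, Lgr6 had no UMI, and Fzd3, a Frizzled, had a ratio of -0.73 ± 0.26. Lgr5 stood at 3.90, 7.84, 0 and 3.15 CPM, below its 43.2, 12, 15.7 and 32.7 CPM in the Rspo2 Adamts2 nuclei of the same libraries.

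Further down the pathway, Znrf3, the ligase that R-spondins remove, stood at 50.7, 42.3, 50.4 and 68.3 CPM against 86.6, 72.9, 113 and 115 CPM (-0.86 ± 0.20). Dkk3, a secreted Dickkopf family protein, stood at 97.6, 92.5, 63.0 and 87.2 CPM against 45.7, 47.2, 21.2 and 22 CPM (1.38 ± 0.45). Tcf7l2, a nuclear effector of beta-catenin, stood at 2.10 to 6.27 CPM against 34.1 to 46.8 CPM (-3.02 ± 0.74). Dkk3 thus had the highest ratio of the measured list and Tcf7l2 the lowest.

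Of the collagens and their processing enzymes, 8 of 28 were measured, with 3 higher and 3 lower. Col4a1 and Col4a2, the chains of basement membrane collagen that share a promoter region, were both higher (0.66 ± 0.12 and 0.77 ± 0.20). Bmp1, a procollagen protease, was lower (-1.36), as was Col25a1, a membrane collagen (-0.58). Of the semaphorins, plexins and neuropilins, 13 of 29 were measured, with 5 higher and 3 lower and a median of 0.31. Plxna4, a semaphorin receptor, stood at 732, 614, 723 and 712 CPM against 292 to 372 CPM (1.07 ± 0.13), and its co-receptor Nrp1 at 97.6, 102, 133 and 115 CPM against 42.9 to 64.9 CPM (1.05 ± 0.18).

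Sema6a was lower, at 4.70 to 15.1 CPM against 43.1 to 58.5 CPM (-2.22), and so were Sema5a (-1.44) and the receptor Plxnc1 (-1.39). The adaptor list did not move with Blnk: of 7 measured members of 13, Blnk and Nck2 were higher, and 4 were lower, among them the Src family kinases Lyn (-0.58) and Fyn (-0.56) and the exchange factor Vav3 (-0.52).

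The list of excitatory identity genes had 6 of 15 measured members higher and 6 lower. Neurod6, a transcription factor of pyramidal neurons, stood at 99.5, 111, 95.7 and 94.6 CPM against 37.2 to 48.6 CPM (1.19 ± 0.13). Zbtb20, a transcriptional repressor, stood at 97.6, 59.5, 52.9 and 42.0 CPM against 270 to 325 CPM (-2.26 ± 0.41), and Foxp2 had a ratio of -1.86. Markers of other excitatory amygdala subtypes were mostly low: of 7 measured, 6 were lower in all 4 libraries, with a median of -1.46, among them Otof (-2.19), Cux2 (-1.75) and Lypd1 (-1.46 ± 0.18). Dkk3, also in that list, was the higher one.

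Transmitter receptors and channels differed in both directions. Of 31 measured glutamate and GABA receptor subunits, 12 were higher and 7 lower (median 0.02). Those that were furthest from 0 among genes on 1 side in all 4 libraries were lower: Grik1 as above, Gabra5, a GABA-A subunit (-1.44), and Grik2, a kainate subunit, at 733 to 982 CPM against 1094 to 1546 CPM (-0.66 ± 0.09). Of 32 voltage-gated channel genes, 13 were higher and 8 lower (median 0.13). Kcnh5, a slow potassium channel, stood at 18.8 to 28.4 CPM against 125 to 152 CPM (-2.49 ± 0.23), and Kcnc2, a fast Kv3 channel, at 35.1, 75.2, 37.8 and 64.1 CPM against 114 to 128 CPM (-1.27). Kcnn2, a calcium-activated potassium channel, had the largest positive ratio among the channels higher in all libraries (0.78).

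The opioid receptors split within 1 family. Of the 17 measured neuropeptides and modulator receptors, 7 were higher and 6 lower. Oprd1, the delta receptor, stood with Oprk1, at 52.7, 50.1, 47.9 and 59.9 CPM against 16.8 to 21.1 CPM (1.43 ± 0.04). Oprm1, the mu receptor, was lower, at 37.1, 64.2, 47.9 and 80.9 CPM against 94.0 to 136 CPM (-1.03 ± 0.47). The muscarinic receptors were split as well: the Gi-coupled Chrm2 stood at 148, 197, 189 and 206 CPM against 73.9 to 81.8 CPM (1.26 ± 0.20), and the Gq-coupled Chrm3 at 68.3, 72.1, 42.8 and 56.7 CPM against 113 to 235 CPM (-1.41). No library of the members overlapped any Rspo2-free library for any of these 4 genes.

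Of 6 measured activity-induced genes, Bdnf and the nuclear receptor gene Nr4a3 (1.03 ± 0.35) were higher in all 4 libraries and none was lower. Vgf, a secreted neuropeptide precursor, varied more (56.6, 70.5, 108 and 36.8 CPM; 0.62 ± 0.79). Of 18 measured chaperones, Atf6, a sensor of unfolded proteins in the endoplasmic reticulum, was higher (0.43 ± 0.07) and 6 were lower, led by the cytosolic chaperone Hspa8 (-0.93 ± 0.23). Of 9 measured mitochondrially encoded genes, 2 were lower and none higher, with a median of -0.87.

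**Figure D3:**
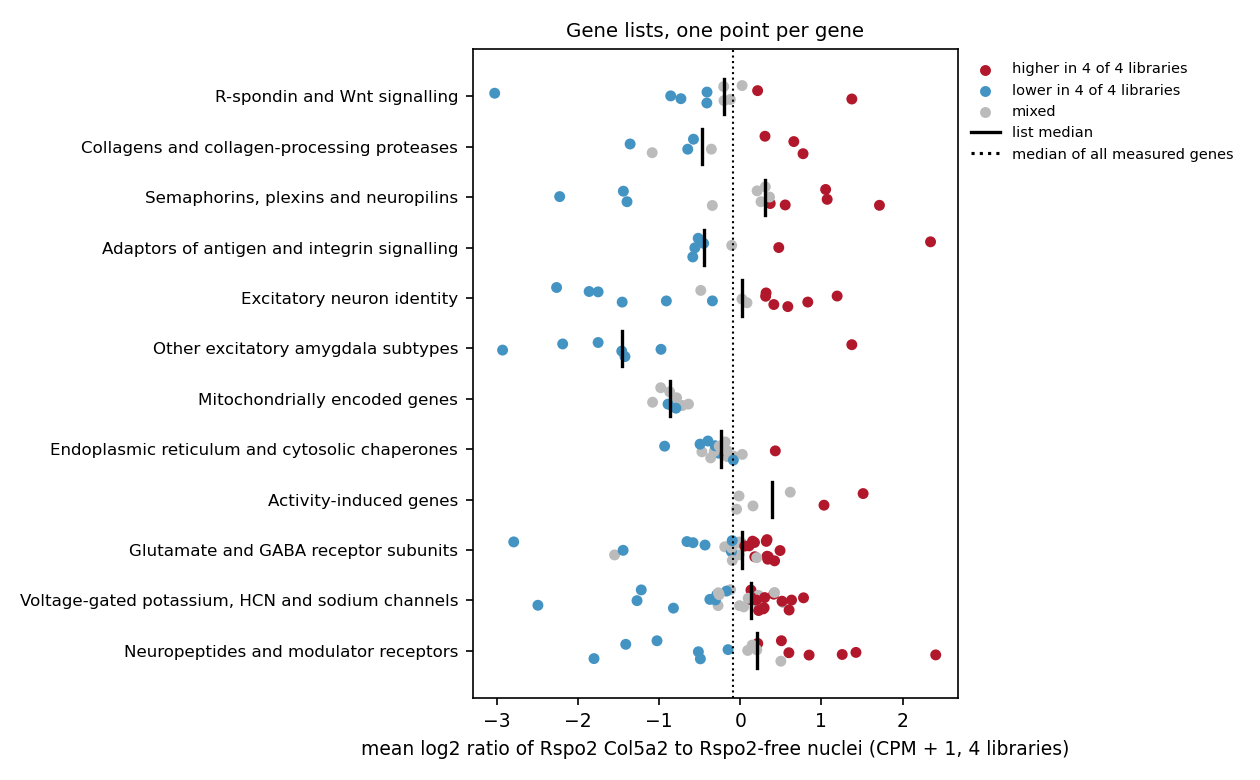
Mean log2 ratio of Rspo2 Col5a2 to Rspo2-free nuclei over 4 libraries (CPM + 1, horizontal axis) for the measured genes of 12 lists, 1 point a gene; red and blue points were higher or lower in 4 of 4 libraries, grey points were mixed, black bars are list medians and the dotted line the median of all 6998 genes (-0.09). The markers of other excitatory subtypes lie mostly left of that line, and both ends of the neuropeptide receptor list reach beyond 1 log2 unit.

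Direct comparison with the Rspo2 Adamts2 nuclei gave the genes that went with the choice between Col5a2 and Adamts2. The genes in this paragraph were chosen after their values were seen, and the comparison is again a description. Beside Blnk (log2 ratio 2.73 ± 1.67), Ntng2 (2.33 ± 0.52) and Bdnf (2.01 ± 0.86), the secretory granule gene Chgb stood at 269, 243, 247 and 159 CPM in the members against 72.0, 45.9, 42.4 and 32.7 CPM (2.26 ± 0.27). Nrp1 stood at 97.6, 102, 133 and 115 CPM against 28.8, 18, 37.7 and 14.5 CPM (2.21 ± 0.56). Sorcs3, a sorting receptor (1.98), and Acvr1c, an activin receptor (1.94), were also higher. Vgf was higher but uneven (1.72 ± 1.20), with 56.6 against 51.8 CPM in WT 1.

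Lower than in the Rspo2 Adamts2 nuclei were Mirt1 (-2.91), Rerg, a Ras-like GTPase (-2.30), Gpc5, a glypican (191, 202, 101 and 128 CPM against 605, 793, 540 and 701 CPM; -2.12 ± 0.38), Fstl5 (-2.12 ± 1.00), Pip5k1b (-2.09) and Vav3 (-2.07 ± 0.45). The granule gene Chgb and the neurotrophin Bdnf therefore lay on the Col5a2 side, and Vgf did so less evenly. Vav3, which shares the adaptor list with Blnk, lay on the Adamts2 side.

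The sequence before the third annotated start of Bdnf is shown because Bdnf differed between the 2 Rspo2 sets and is known as a calcium- and cAMP-responsive gene. RefSeq (GRCm38.p6) places the window on the plus strand at chr2:109692286-109692435. Capitals mark CACGTCA, a core of the cAMP response element, searched on both strands; 1.25% of the 32851 windows held it, and 1 of the 7 Bdnf windows did.
Bdnf start 3: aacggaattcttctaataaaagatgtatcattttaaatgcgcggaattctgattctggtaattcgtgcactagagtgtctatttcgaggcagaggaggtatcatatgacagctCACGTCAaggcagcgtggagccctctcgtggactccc

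The members were not uniform. Counting a UMI of Sema3e, Blnk, Ntng2, Npsr1, Oprk1 and Cdh9, every member had at least 1 of the 6 genes, 6 had 1, 25 had 2, 46 had 3, 46 had 4, 57 had 5 and 21 had all 6. The median depth was 10120.5 UMIs in the nuclei with 1 gene and 12422 UMIs in those with all 6, so depth moved with this count and its part in it was not tested.

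The share of members among excitatory nuclei was higher in DISC1-N than in WT within both replicate numbers. It was 1.77% in WT 1 (exact 95% binomial interval 1.25 to 2.43%), 2.98% in DISC1-N 1 (2.20 to 3.93%), 2.05% in WT 2 (1.44 to 2.81%) and 4.27% in DISC1-N 2 (3.40 to 5.29%). These intervals cover counting error only. Both DISC1-N libraries lay above both WT libraries, by 1.21 percentage points in replicate 1 and 2.22 in replicate 2, or 1.68-fold and 2.09-fold. The means were 1.91% ± 0.196 in WT and 3.62% ± 0.915 in DISC1-N (SD, n = 2 each). A two-sided exact permutation test of the libraries gave p = 0.33, the smallest p that 2 libraries against 2 allow.

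On the counts of nuclei, edgeR's quasi-likelihood test over 4 kinds of excitatory nuclei gave a log2 difference of 0.94 ± 0.55 (SE) with a Benjamini-Hochberg adjusted p of 0.309, and 0.92 ± 0.42 with an adjusted p of 0.203 when replicate number was a block. Neither passed the threshold of 0.05. The Rspo2 Adamts2 nuclei made up 1.34%, 2.36%, 2.99% and 3.35% of excitatory nuclei, higher in DISC1-N within both numbers too, but with overlapping genotypes (two-sided exact permutation p = 0.667).

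Since the rule counts UMIs, the share can move with depth. The median depth of all excitatory nuclei was 6496 UMIs in WT 1, 7721 in DISC1-N 1, 7064.5 in WT 2 and 7957 in DISC1-N 2, higher in both DISC1-N libraries. After thinning to 5000 UMIs, with shallower nuclei left out, the members made up 0.536%, 1.11%, 0.545% and 2.18%. These shares rest on only 6, 11, 5 and 22 nuclei. A looser rule after thinning, with at least 1 Rspo2 UMI and an excess of 1, gave 4.38%, 5.13%, 3.92% and 8.21%. Without thinning, the members made up 10.8%, 14.4%, 8.33% and 15.4% of nuclei with at least 2 Rspo2 UMIs. The order of genotypes was the same in each of these. In nuclei with at least 2 Rspo2 UMIs, the share with any Col5a2 UMI was 30.4%, 31.4%, 28.8% and 30.9%, and Col5a2 stood at 46.4, 49.2, 43.1 and 56.8 CPM. Without DISC1-N replicate 2 the difference in the share fell from 1.72 to 1.07 percentage points.

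**Figure D4:**
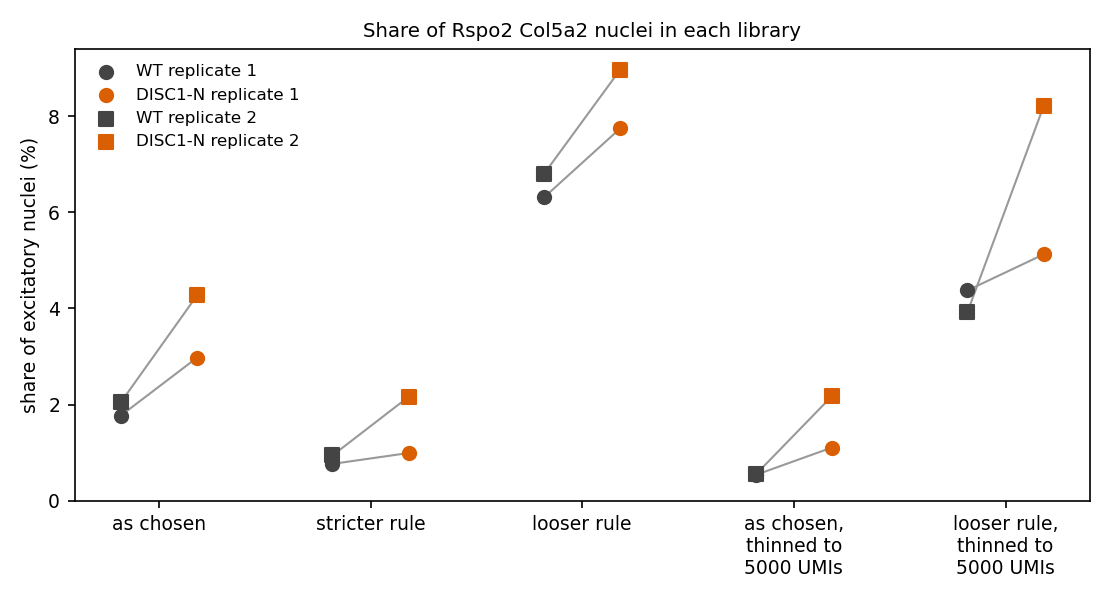
Share of Rspo2 Col5a2 nuclei among excitatory nuclei (vertical axis, %) in each library under 5 forms of the rule, the last 2 after thinning to 5000 UMIs per nucleus; lines join libraries of the same replicate number. Both DISC1-N points lie above both WT points under every form shown, and the distance between the 2 DISC1-N points is larger than that between the WT points.

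No gene passed in the comparison of DISC1-N with WT members. Of 7719 genes tested with edgeR's quasi-likelihood test, 0% had a Benjamini-Hochberg adjusted p under 0.05, and 148 had an unadjusted p under 0.05. DESeq2 and limma-voom also called 0 genes, with 18 and 146 at an unadjusted p under 0.05. Both DISC1-N libraries lay above both WT libraries for 13.3% of genes and below for 14.3%, and the genes named below are to be read against these shares.

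With replicate number as a block, 4 genes passed, 0.0518% of those tested: 3 rose and 1 fell. The replicate numbers coincided with 2 Cell Ranger versions in the file headers. All but 1 of the 4 were gene models and are given as values chosen after they were seen. B230323A14Rik (log2 difference 2.79 ± 0.47, edgeR Benjamini-Hochberg adjusted p = 2.27e-05) had 8, 59, 0 and 19 UMIs in the members, of which 33.7% came from 1 DISC1-N nucleus. Gm47283, a model on chromosome Y (0.69 ± 0.14), and AC149090.1, a model on an unplaced scaffold (-0.73 ± 0.14), had differences of the same sign and like size in the Rspo2-free nuclei (0.93 and -0.62).

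Fstl5 was the named gene. It encodes follistatin-like 5, a secreted glycoprotein, and lies on the plus strand of chromosome 3 at chr3:76074270-76710019 (mm10), where it overlaps the gene model Gm37897. It stood at 17.6 CPM in WT 1, 67.4 in DISC1-N 1, 22.7 in WT 2 and 66.2 in DISC1-N 2. The UMIs behind these were 9, 43, 9 and 63, found in 7 of 37, 22 of 48, 7 of 37 and 21 of 79 nuclei, and the nucleus with most held 7.26% of them. The genotypes did not overlap, with means of 20.1 ± 3.61 CPM in WT and 66.8 ± 0.841 CPM in DISC1-N (SD, n = 2 each).

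In the members the Fstl5 log2 difference was 1.75 ± 0.36 with an adjusted p of 1.00 in edgeR's test without a block (unadjusted p = 0.000164), and 1.74 ± 0.36 with an adjusted p of 0.00266 with the block. The difference and its SE were thus almost the same in both fits. The lower p of edgeR's test with the block (unadjusted p = 1.38e-06) did not come from a smaller error for Fstl5. Both other sets had more Fstl5 and less difference: 155, 156, 250 and 225 CPM in the Rspo2-free nuclei and 115, 146, 224 and 189 CPM in the Rspo2 Adamts2 nuclei. The members of DISC1-N mice were thus higher than those of WT mice but still below every library of both other sets. Thinned to 5000 UMIs, 8.11%, 22.9%, 13.9% and 17.7% of members had an Fstl5 UMI, and 4.40% of the unthinned oligodendrocyte nuclei had one.

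The window before the second annotated start of Fstl5 is shown because Fstl5 was called both with the block and in the interaction test described below, though not in the test without a block. RefSeq (GRCm38.p6) places it on the plus strand at chr3:76075433-76075582. The GC box, the letters CACGTCA and TATAAA, which 7.57% of all windows held, were searched on both strands. None was in this window, so it has no capitals.
Fstl5 start 2: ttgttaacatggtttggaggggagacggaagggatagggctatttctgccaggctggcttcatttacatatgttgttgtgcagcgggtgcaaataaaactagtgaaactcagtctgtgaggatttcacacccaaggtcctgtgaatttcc

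Members with and without an Fstl5 UMI were also set side by side for other genes. The 57 members with an Fstl5 UMI had 54.1 CPM of Blnk, 61.3 of Ntng2, 66.2 of Bdnf and 83.0 of Cdh13, at a median of 14031 UMIs. The 144 without one had 74.3, 107, 94.1 and 18.6 CPM, at a median of 11053 UMIs. Chgb (218 and 216 CPM) and Nrp1 (114 and 109 CPM), which also lay on the Col5a2 side, were alike in both. These sums over pooled nuclei are a description with no test, and the part of the makeup of the members in the Fstl5 difference was not tested.

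Whether a genotype difference in the members departed from that in the Rspo2-free nuclei was tested with an interaction term in edgeR's quasi-likelihood test. Of 14394 genes, 4 (0.0278%) had a Benjamini-Hochberg adjusted p under 0.05, and 510 had an unadjusted p under 0.05. Fstl5 was among them, with a log2 difference between the sets of 1.79 ± 0.36 (adjusted p = 0.00302). This call was lost without DISC1-N replicate 1 (adjusted p = 0.474), without WT replicate 2 (0.283), under the stricter rule of at least 3 Rspo2 UMIs and an excess of 3 (0.197), with nuclei under 15000 UMIs (0.498) and in limma-voom (0.700). In the same order the difference itself was 1.55 ± 0.43, 1.58 ± 0.45, 1.85 ± 0.48, 1.49 ± 0.43 and 1.70 ± 0.43, so it kept its direction. Under the other 8 alternatives its adjusted p lay between 0.00148 and 0.0258.

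Pde1c, a calmodulin-dependent phosphodiesterase of cyclic nucleotides, had 0, 10, 0 and 11 UMIs in the members, in 8 nuclei of each DISC1-N library. No WT member had one, which at 37 nuclei a library allows a share of nuclei with a Pde1c UMI of up to 8.11%; a nucleus without a UMI may still express the gene. The measured DISC1-N level was 2.68-fold a floor of 3 counts in the WT library of replicate 1, and 1.53-fold that floor in replicate 2. These values leave out the counting error of the 10 and 11 UMIs, so they are not lower limits of the difference. In the Rspo2-free nuclei it stood at 23.4, 18.6, 20.0 and 17.5 CPM. The interaction had an adjusted p of 0.0351 in edgeR's test, and the call was lost under 9 of 13 alternatives, each library left out in turn included.

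The other 2 interaction calls rested on single nuclei of WT replicate 2. Mob3b, a kinase activator gene, had 0, 3, 46 and 2 UMIs in the members, and 90.2% of these came from 1 nucleus. The model 1700034P13Rik had 8, 2, 32 and 4 UMIs, with 67.4% from 1 nucleus. Their log2 differences between the sets were -3.55 ± 0.69 and -4.28 ± 0.61 (edgeR Benjamini-Hochberg adjusted p = 0.00201 and 2.41e-08). Without WT replicate 2, the value for Mob3b was 6.82, of the opposite sign, and that for 1700034P13Rik was -2.93 with an adjusted p of 0.453.

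**Figure D5:**
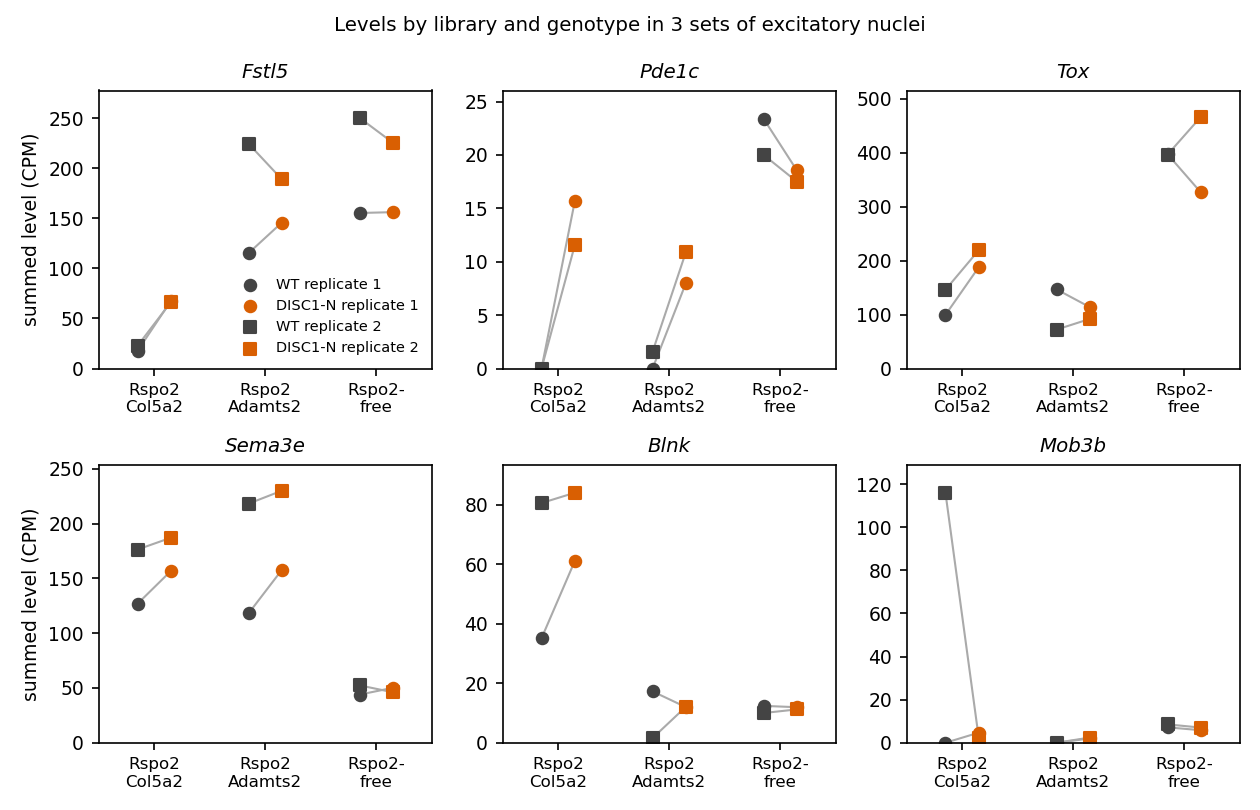
Summed level (CPM, vertical axes from 0) of 6 genes in each library of the Rspo2 Col5a2, Rspo2 Adamts2 and Rspo2-free nuclei; grey symbols are WT and orange DISC1-N, and lines join libraries of the same replicate number. Fstl5 is near 20.1 CPM in WT and 66.8 CPM in DISC1-N members, and the high Mob3b point is the WT replicate 2 library in which 1 nucleus held most UMIs.

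The remaining genes of lowest p did not pass in edgeR's test with or without the block, and are given as values. Tox, a nuclear regulator of transcription, stood at 99.5, 188, 146 and 220 CPM, both DISC1-N libraries above both WT libraries (log2 difference 0.76 ± 0.25). Taf3, a TFIID subunit, stood at 21.5, 64.2, 25.2 and 48.3 CPM (1.27 ± 0.38), and Nup214, a nucleoporin, at 39.0, 87.8, 32.7 and 60.9 CPM (1.03 ± 0.33). The long RNA Snhg20 stood at 144, 287, 156 and 188 CPM (0.66 ± 0.25). In the other direction, Rab5if stood at 29.3, 11.0, 42.8 and 10.5 CPM (-1.70 ± 0.49). Meis2, a homeobox transcription factor, stood at 135, 54.8, 60.4 and 42.0 CPM (-1.04 ± 0.35), so that the WT libraries differed from each other by more than WT 2 did from DISC1-N 1. Their adjusted p values with the block lay between 0.165 and 0.311 in edgeR.

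No gene of any list passed in edgeR's test, without or with the block. Neither Sema3e nor Blnk did: within each replicate number DISC1-N was higher for both, but the replicates differed by more than the genotypes. Kcnc2 (log2 difference 0.94 ± 0.32) and Oprm1 (0.81 ± 0.32), which were both below the Rspo2-free nuclei, were higher in DISC1-N members without passing, and Grik3, a kainate subunit, stood at 125, 83.1, 103 and 68.3 CPM (-0.60 ± 0.27). Of 8 tested activity-induced genes 6 had a negative difference (median -0.35), and of 10 tested mitochondrially encoded genes all did (median -0.92). Among all 7719 genes tested, 50.5% had a negative difference (median -0.003). These counts by direction carry no test.

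The summed RNA of some other sources differed by genotype in the members, in both directions. The summed mitochondrially encoded genes stood at 894, 638, 562 and 167 CPM, lower in DISC1-N within both numbers. They were also lower in DISC1-N within both numbers in the Rspo2-free nuclei (2042, 1326, 504 and 357 CPM). The same held in the Rspo2 Adamts2 nuclei (979, 577, 588 and 142 CPM). The inhibitory neuron markers (228, 207, 149 and 137 CPM) and the astrocyte markers (386, 279, 267 and 255 CPM) were lower in DISC1-N within both numbers as well, with overlapping genotypes for both lists. A list of 9 oligodendrocyte markers stood at 131, 100.3, 108 and 80.9 CPM, below both WT libraries in each DISC1-N library. The 8 microglia markers stood at 33.2, 72.1, 45.3 and 66.2 CPM, above both WT libraries in each DISC1-N library. The 7 precursor markers (44.9, 28.2, 5.04 and 10.5 CPM) went opposite ways in the 2 replicate numbers. The 9 endothelial and mural markers (7.80, 7.84, 2.52 and 5.25 CPM) overlapped between genotypes. Their part in the genotype values above was not tested. In summed nuclei, more nuclei with a transcript and more of it per nucleus cannot be told apart from the level alone.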

How the data were processed

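Droplet 3′ libraries of BLA nuclei were sequenced, 2 per genotype. The authors deposited UMI counts per gene and barcode, not normalized, made with Cell Ranger on mm10, per the file headers and the submitters' processing notes. The headers of the replicate 1 files name version 7.0.0 and those of the replicate 2 files 6.0.2, and the notes give 7.0.0 throughout. For intron and strand settings and for how nuclei were called, the entry is: not given in the sources used here. The members and gene lists were chosen with earlier results of these data known.

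Counts were summed over the nuclei of a set in each library, in Python 3.11.15. Genotypes were compared with edgeR 4.0.16 (quasi-likelihood, TMM, filterByExpr) in R 4.3.3, on the members alone or, for the interaction, on members and Rspo2-free nuclei, with Benjamini-Hochberg adjustment over all genes and a threshold of 0.05. DESeq2 1.42.0, limma 3.58.1 (voom), other size factors, no expression filter, stricter and looser rules, doublet removal, thinning to 5000 UMIs and leaving out each library were the alternatives. Doublets were scored with Scrublet in scanpy 1.11.5 and the highest scores marked, more of them in larger libraries, and they were left in. The tests were tried on simulated counts. Libraries of the same replicate number deviated together from their genotype means (correlation 0.261 over 7719 genes), and they share a Cell Ranger version, so the number was also fitted as a block.

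Named genes were those of adjusted p under 0.05 with at least 20 CPM and both DISC1-N libraries on 1 side of WT, or else the 6 of lowest p. For levels against Rspo2-free nuclei they were the 15 highest and 10 lowest ratios among genes with at least 50 CPM in either set and 1 sign in 4 libraries, and up to 4 genes of each list. Gene models, mitochondrial, ribosomal protein and sex-linked genes were left out of this rule, and genes outside it are said to be chosen after their values were seen, or illustrate a list. Some genes are not reported here. Promoter entries were found for 12 of 16 genes looked up in RefSeq; 150 bases before each start were searched, and windows touching an annotated exon were not used.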

Additional observations from a re-analysis of the deposited data

Results flagged for a closer look

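The genotype difference departed between the Rspo2 Col5a2 nuclei and the Rspo2-free nuclei for 4 genes in edgeR's interaction test. Their Benjamini-Hochberg adjusted p values were 2.41e-08 for 1700034P13Rik, 0.00201 for Mob3b, 0.00302 for Fstl5 and 0.0351 for Pde1c. Fstl5 was spread over 57 nuclei of 4 libraries. The UMIs of Mob3b and 1700034P13Rik came mostly from 1 nucleus each of WT replicate 2, and those of Pde1c numbered 10 and 11 in the DISC1-N libraries and 0 in the WT libraries.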

How the results depend on the processing

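The difference in the share of members kept its direction under all 14 alternatives, some of which could not have reversed it. It ran from 0.724 percentage points under the stricter rule to 2.52 with the looser rule after thinning (5.32 as a share of nuclei with at least 2 Rspo2 UMIs), and from 1.07 to 2.36 with a library left out. The rules differ in their WT shares, so these points do not rank its strength. The ratios in replicates 1 and 2 were 1.68 and 2.09 in the main rule, and 1.30 and 2.30 in the stricter rule. They were 1.23 and 1.32 in the looser rule. After thinning they were 2.06 and 4.00 with the main rule and 1.17 and 2.09 with the looser rule. The 3 share alternatives that used the same rule after thinning, nuclei of at least 5000 UMIs, or nuclei with at least 2 Rspo2 UMIs as the total were chosen after seeing the data. Leaving out 1 library could not reverse the share difference, since both DISC1-N shares lay above both WT shares. The replicate block gives the same mean difference by design. Genes called between genotypes in the members numbered 0, and 4 with the replicate block, 8 with no expression filter, 1 under the stricter rule and 2 to 12 with a library left out (7 without WT 1, 12 without DISC1-N 1, 2 without WT 2, 5 without DISC1-N 2). Genotypes with 1 library left took their spread from the other genotype. Interaction calls could keep their number while the genes changed. The stricter rule and the limit of 15000 UMIs each called 4 genes, but shared 0 and 2 with the main 4. DESeq2 size factors, mitochondrial UMIs under 1% and nuclei of at least 5000 UMIs each called the main 4. With no expression filter or doublets removed, 3 were called, all among the main 4. With any library left out, the genes called were not the same set. For the interaction the count went from 4 to 1 in limma-voom and to between 2 and 9 with a library left out (9 without WT 1, 2 without DISC1-N 1, 7 without WT 2, 3 without DISC1-N 2); replicate block by set gave 4, the same genes. Differences that changed sign were, for the members, Sema3e without WT 1 (-0.032; -0.032 to 0.47 with each library left out), Blnk without WT 1 (-0.13 to 1.08 likewise), Blnk (-0.013) and Nrp2 (-0.19) after thinning, Bdnf without WT 2 (-0.73 to 0.13 likewise) and Tshz2 (-0.18) under 15000 UMIs; for the interaction, Mob3b (5.62 under the stricter rule, -4.71 to 6.82 with each library left out, the highest without WT 2) and 1700034P13Rik (0.74 under the stricter rule). The cause was not tested. Of the other single-gene genotype values in the members, 334 kept their direction and side of the threshold and 14 gained a call. Summed depth of 397025 to 951754 UMIs per library and 37 to 79 nuclei limit all genes of a few CPM.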
